A study of Mus musculus with 6 samples.

Results

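De novo lipogenesis, the making of fatty acids from carbohydrate carbon, was described in inguinal white fat through 10 genes: the enzymes Acly, Acaca, Acacb, Fasn, Scd1, Scd2 and Me1, the transcription factors Srebf1 and Mlxipl, and the lipogenic nuclear protein Thrsp. All probe sets that the array annotation assigns to exactly 1 of these symbols were taken, which gave 23 of the 34945 probe sets with a single gene, and 10 of 18193 genes. Naa10-KO male mice (n = 3) were compared with WT male mice (n = 3), with 1 Affymetrix mouse array of 45101 probe sets per mouse. Mice of both genotypes received a diet with 60% of calories from fat, started at 6 weeks of age and kept for 15 weeks, and then spent 4 h at 4 °C, after which inguinal fat was taken. Naa10 catalyses the acetylation of protein N termini. The labels give the genotype as Naa10-KO without the construct, the strain or the cells in which the gene is lost, and no probe set carried the name Naa10 in the annotation used, so the genotype was not checked against the targeted transcript.

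In lipogenesis, ATP citrate lyase (Acly) splits cytosolic citrate into acetyl-CoA, acetyl-CoA carboxylases (Acaca, Acacb) make malonyl-CoA from it, and fatty acid synthase (Fasn) builds palmitate with NADPH, part of which comes from malic enzyme (Me1). Stearoyl-CoA desaturases (Scd1, Scd2) then place a double bond in the saturated chain. Insulin acts on these genes largely through SREBP-1c, a product of Srebf1, and glucose through ChREBP, the product of Mlxipl.

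Signals are on the log2 scale as deposited, differences are Naa10-KO minus WT in log2 units with limma's standard error (SE), and p-values were adjusted by the Benjamini-Hochberg method across the 18193 genes (threshold 0.05). The median of all values, 5.85, marks low signal, because no detection calls were used. Of 14 measured white adipocyte markers, none lay below this median on all arrays, and their summed linear signal was 379242 to 427082 on Naa10-KO arrays and 359133 to 452677 on WT arrays. Skeletal muscle markers differed far more: 20 of 20 means were higher in Naa10-KO, with a summed signal of 128447 to 167150 on Naa10-KO arrays and 8525 to 23462 on WT arrays. Among WT arrays, replicate 3 was the highest in these markers. The 3' minus 5' signal of the Gapdh control probe sets was 0.55 on Naa10-KO replicate 1 and between -0.27 and 0.01 on the other 5 arrays. For the actin control probe sets it was 2.07 on Naa10-KO replicate 1 and between 1.42 and 1.85 on the other 5 arrays. What these differences contribute to the values below was not tested, except where a fit without an array is given. In whole tissue, fewer cells of a type and less RNA per cell cannot be told apart.

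None of the 10 genes passed limma's threshold over all genes in either direction, against 5 genes lower (0.0275%) and 16 higher (0.0879%) of 18193. At an unadjusted p under 0.05, 3 of the 10 were lower in Naa10-KO (Fasn, Scd2 and Me1) and 0 were higher, where the background was 4.35% of genes lower and 4.85% higher. For 4 of the 10 (these and Thrsp) every Naa10-KO array lay below every WT array, as for 8.14% of all genes. The opposite order, every Naa10-KO array above every WT array, was found in 0 of the 10 and in 10% of all genes. Means were lower in Naa10-KO for 5 of the 10 genes and for 48.6% of all genes, and the median difference of the 10 was -0.03, beside 0.01 over all genes. The median of the list thus lay near that of all genes, and the differences with an unadjusted p under 0.05 lay in 3 of its enzymes.

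**Figure D1:**
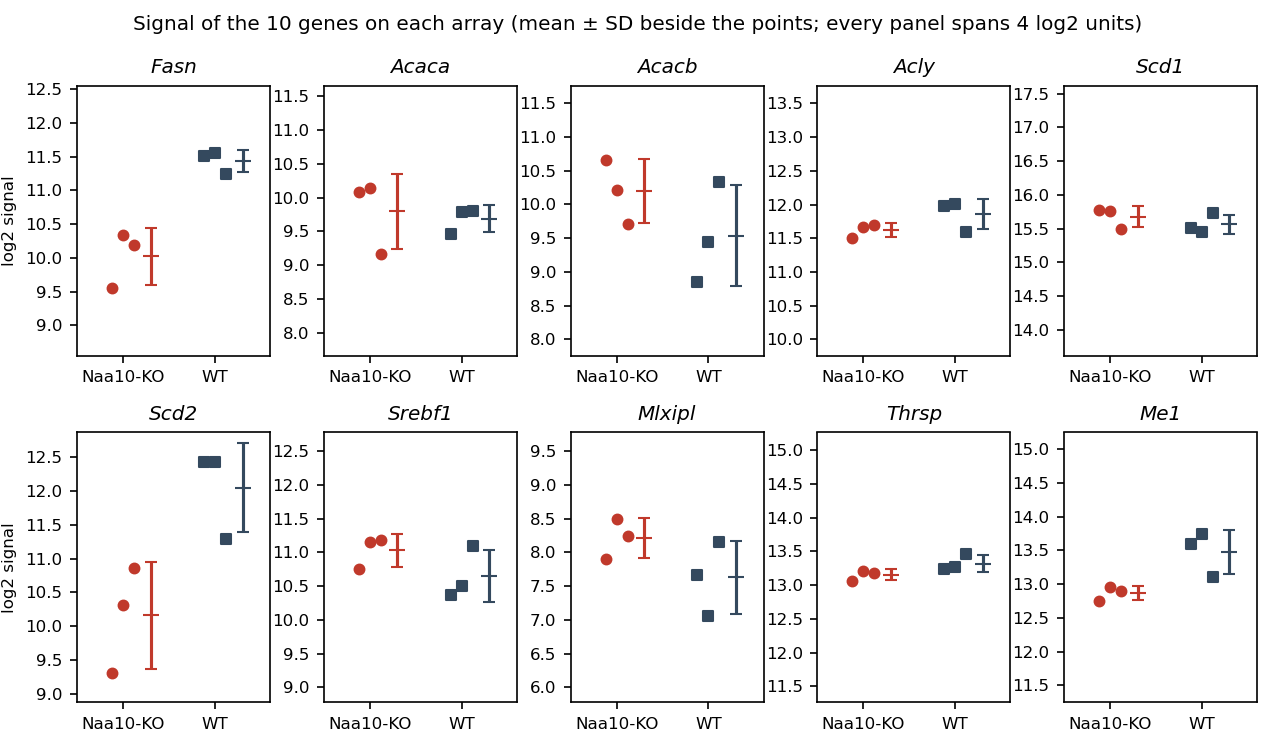
Log2 signal of the 10 genes on each array (circles, Naa10-KO; squares, WT), with the mean ± SD (n = 3) to the right of the points; every panel spans the same range of log2 units. Fasn, Scd2 and Me1 lie lower on all Naa10-KO arrays, Thrsp does so by a small margin, and the groups overlap in the other 6 genes.

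Acly (GRCm38.p6 chr11:100476352-100528000), the first enzyme of the pathway, gave 6 probe sets that disagreed. The representative probe set read 11.50, 11.67 and 11.70 on Naa10-KO arrays and 11.97, 12.01 and 11.60 on WT arrays, with overlapping groups (difference -0.24, SE 0.17, 95% interval -0.67 to 0.20; limma adjusted p = 0.692). Differences of the 2 next brightest were -0.18 (SE 0.18) and -0.32 (SE 0.30), also with overlap. The interval of the representative probe set leaves room for a level in Naa10-KO between 0.67 log2 units lower and 0.20 higher. The 3 dim probe sets differed by 0.68, -2.23 and -3.16, and the last was the only one of the 6 to separate the groups. It read 0.78, 1.27 and 2.57 on Naa10-KO arrays and 5.38, 4.93 and 3.78 on WT arrays, all under the median of all values, so its large difference lay wholly in low signal. Without WT replicate 3 the representative Acly probe set also separated the groups, at -0.37.

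The 2 acetyl-CoA carboxylases make malonyl-CoA for different ends, Acaca (chr11:84129635-84401651) in the cytosol for synthesis and Acacb (chr5:114146321-114250761) at the mitochondrion, where malonyl-CoA restrains fatty acid import for oxidation. Acaca read 10.08, 10.15 and 9.16 on Naa10-KO arrays and 9.45, 9.79 and 9.81 on WT arrays, so that the WT values lay inside the Naa10-KO range (difference 0.11, SE 0.32; limma adjusted p = 0.921). The sign turned when Naa10-KO replicate 1 or 2 or WT replicate 1 was left out (-0.067 to -0.0055). Acacb, the form abundant in heart and skeletal muscle, read 10.66, 10.22 and 9.71 on Naa10-KO arrays and 8.85, 9.44 and 10.33 on WT arrays. Its groups overlapped because of WT replicate 3 (difference 0.66, SE 0.45, 95% interval -0.48 to 1.80; limma adjusted p = 0.676). Muscle marker means were 11.10, 11.09 and 11.34 on the Naa10-KO arrays and 4.98, 5.61 and 8.29 on the WT arrays, so the WT array highest in muscle markers was also the highest WT array in Acacb. Within Naa10-KO the order was the opposite, as replicate 3 was the highest in muscle markers and the lowest in Acacb. The markers' part in this value was not tested. Without WT replicate 3 the Acacb difference was 1.05. The second probe set of each gene lay below the median of all values on all 6 arrays (differences 0.12 for Acaca and 0.50 for Acacb).

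Fasn (chr11:120805958-120825166) carries out all steps of palmitate synthesis in 1 large polypeptide. Its signal was 9.55, 10.34 and 10.19 on Naa10-KO arrays, against 11.51, 11.55 and 11.25 on WT arrays. The groups were separated by a gap wider than the range within either of them. Means were 10.02 ± 0.42 in Naa10-KO and 11.44 ± 0.16 in WT fat (SD, n = 3 each), a difference of -1.41 (SE 0.25, 95% interval -2.05 to -0.77), or a signal 2.66-fold higher in WT. Fasn did not pass over all genes in limma (unadjusted p = 0.0021, adjusted p = 0.231) and ranked 162 of 18193 genes by p. When limma's variance prior followed the mean signal and was robust to outlying genes, Fasn passed (adjusted p = 0.00401), as 1 of 35 lower genes (0.192% of all). It was the only member past the threshold in any of 18 alternative settings. Without Naa10-KO replicate 1, the lowest array, the difference was -1.17, and over the fits that left out 1 array it lay between -1.57 and -1.17. The gene is measured by a single probe set, so no other probe set bears on this value.

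The promoter window of Fasn is shown because this gene had the smallest p of the 10. RefSeq windows of GRCm38.p6, from 250 bases before to 50 after a transcript start, were found for 8 of the 10 genes (12 windows), and Scd1 and Scd2 had none in the table used. Capitals mark matches on either strand to CCAAT (the CCAAT box, bound by NF-Y), to CACGTG (an E-box, a type of site that ChREBP and SREBP can bind) and to TCACNCCAC (a sterol regulatory element, bound by SREBP), where N is any base. The Fasn window, chr11:120824498-120824797 on the minus strand, reads 5′ to 3′:
Fasn: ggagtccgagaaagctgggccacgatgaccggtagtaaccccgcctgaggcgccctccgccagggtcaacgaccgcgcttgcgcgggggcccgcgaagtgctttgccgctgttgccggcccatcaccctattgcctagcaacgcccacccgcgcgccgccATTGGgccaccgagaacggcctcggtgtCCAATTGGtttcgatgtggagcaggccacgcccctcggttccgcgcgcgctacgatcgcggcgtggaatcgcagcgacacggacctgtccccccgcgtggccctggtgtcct
It holds 3 CCAAT matches, which begin 90, 62 and 59 bases before the start, the last 2 overlapping, and no match to the other 2 motifs. A CCAAT match was in 37.4% of 32851 such windows of the genome, a CACGTG match in 7.15% and a TCACNCCAC match in 1.24%. Of the 12 windows of these genes, 8 held CCAAT, in 7 of the 8 genes, 1 held CACGTG and 1 held TCACNCCAC. Thrsp, Acly, Acacb, Srebf1, Mlxipl and Me1 each had CCAAT in at least 1 window, and the Acaca window had none. The Acly match begins 37 bases after the start. All windows of Fasn, Acaca, Acacb and Srebf1 lie inside the loci given for these genes, so the outermost start of each was not searched.

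Me1 (chr9:86581363-86695914), the cytosolic malic enzyme that yields NADPH, was measured by 2 probe sets that ran in parallel. The brighter read 12.76, 12.96 and 12.90 on Naa10-KO arrays, against 13.59, 13.74 and 13.11 on WT arrays. The other read 12.32, 12.61 and 12.76 on Naa10-KO arrays, against 13.46, 13.68 and 12.86 on WT arrays. Both separated the groups, and in both the lowest WT array was replicate 3, close to the Naa10-KO range. For the gene the difference was -0.61 (SE 0.21, 95% interval -1.14 to -0.08; limma unadjusted p = 0.0309, adjusted p = 0.512), a signal 1.52-fold higher in WT; the other probe set gave -0.77 (SE 0.28). The difference was -0.79 without WT replicate 3 and -0.48 without WT replicate 2.

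Me1 has 2 RefSeq windows, shown because both Me1 probe sets separated the groups, both windows on the minus strand, at chr9:86695865-86696164 (upstream) and chr9:86687228-86687527 (downstream).
Me1 upstream start: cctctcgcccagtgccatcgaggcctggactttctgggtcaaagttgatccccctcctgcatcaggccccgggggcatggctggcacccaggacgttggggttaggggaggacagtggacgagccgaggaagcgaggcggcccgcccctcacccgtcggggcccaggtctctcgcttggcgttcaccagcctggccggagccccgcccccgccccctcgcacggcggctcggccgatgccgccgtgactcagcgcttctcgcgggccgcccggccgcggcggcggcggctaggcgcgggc
Me1 downstream start: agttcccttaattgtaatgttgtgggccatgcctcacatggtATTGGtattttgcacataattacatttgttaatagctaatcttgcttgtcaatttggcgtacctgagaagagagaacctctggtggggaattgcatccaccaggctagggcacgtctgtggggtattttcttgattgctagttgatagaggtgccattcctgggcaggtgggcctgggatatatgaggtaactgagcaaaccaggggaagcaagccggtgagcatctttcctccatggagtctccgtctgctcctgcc
The upstream window held none of the 3 motifs, and the downstream one held 1 CCAAT match, on the opposite strand, 208 bases before its start.

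Scd2 (chr19:44293676-44306864) had the largest difference among the 10. This desaturase acts in skin, brain and adipocyte precursors, while Scd1 is the main form of mature fat and liver. On the probe set that represents the gene, the Scd2 signal was 9.30, 10.32 and 10.87 on Naa10-KO arrays and 12.44, 12.43 and 11.29 on WT arrays. The groups did not overlap, but WT replicate 3 lay closer to the highest Naa10-KO array than to the other WT arrays. The difference was -1.89 (SE 0.53, 95% interval -3.22 to -0.56; limma unadjusted p = 0.0141, adjusted p = 0.473), a signal 3.71-fold higher in WT.

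The 2 other Scd2 probe sets ran the same way. One read 5.94, 7.45 and 7.22 on Naa10-KO arrays and 9.29, 9.39 and 8.40 on WT arrays (difference -2.16 with an SE of 0.51, and limma adjusted p = 0.434 over all 34945 probe sets). The dimmest read 4.83, 5.46 and 5.38 on Naa10-KO arrays, all under the median of all values, and 6.15, 6.33 and 6.42 on WT arrays, all above it (difference -1.08 with an SE of 0.23, and limma adjusted p = 0.377 over all probe sets). All 3 probe sets separated the groups, with Naa10-KO replicate 1 lowest in each, and they measure 1 transcript in the same 6 RNA samples. Without Naa10-KO replicate 1 the difference of the gene was -1.46, and without WT replicate 3 it was -2.27.

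Scd2 is also known from nerve sheath and skin, and markers of both were set beside it. Of 10 measured nerve and Schwann cell markers, 7 means were higher in Naa10-KO, with a summed linear signal of 2203 to 2587 on Naa10-KO arrays and 2018 to 2760 on WT arrays; 2 of the 10 lay below the median of all values on every array. Their mean log2 signal was 6.49, 6.40 and 6.55 on Naa10-KO arrays and 6.25, 5.94 and 6.15 on WT arrays, without overlap, so the sum and the mean differ in this. No nerve marker passed in limma over all genes. Mal, Mbp and Cdh19 lay higher on all Naa10-KO arrays (differences 1.14, 1.05 and 0.64). S100b and Mag lay lower on all of them (-1.41 and -1.69). Over all genes, 10% lay higher in this way, 8.14% lay lower, and 48.6% had a lower mean. Mag was low in signal, under the median of all values on every Naa10-KO array and on WT replicates 1 and 3. Mal was under it on every WT array. S100b, which adipocytes also express, read 8.04, 9.23 and 9.612 on Naa10-KO arrays and 10.74, 10.75 and 9.613 on WT arrays. Its groups thus nearly touched. As in Scd2, Naa10-KO replicate 1 was its lowest array and WT replicate 3 its lowest WT array. Of 11 measured skin and sebaceous markers, 7 means were lower and 5 lay below that median on every array, and the summed signal was 3270 to 3890 on Naa10-KO arrays and 3377 to 3528 on WT arrays. The part of these markers in the Scd2 values was not tested.

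Scd1 (chr19:44394450-44407709), the neighbour of Scd2 on chromosome 19, was measured by 2 probe sets. The brighter probe set read 15.78, 15.76 and 15.49 on Naa10-KO arrays and 15.51, 15.45 and 15.73 on WT arrays, and the groups overlapped (difference 0.12, SE 0.16, 95% interval -0.29 to 0.52; limma adjusted p = 0.837). These values lay near the top of the scale, as the maximum of each array was between 15.83 and 16.26; whether the probes were saturated was not tested. The dimmer Scd1 probe set had 12.42, 12.97 and 13.13 on Naa10-KO arrays and 12.69, 13.04 and 13.76 on WT arrays. Its mean was lower in Naa10-KO (difference -0.32 with an SE of 0.36, 95% interval -1.22 to 0.57, and limma adjusted p = 0.815 over all probe sets), with overlapping groups. The sign of the Scd1 difference thus depended on the probe set, and both intervals include 0. Probe sequences were not used here, so hybridisation of 1 desaturase's RNA to the other's probes was not tested.

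The 2 transcription factors of the pathway had higher, not lower, means in Naa10-KO, and neither passed. Srebf1 (chr11:60199084-60224186) read 10.75, 11.16 and 11.19 on Naa10-KO arrays and 10.37, 10.50 and 11.09 on WT arrays. The Srebf1 mean was higher in Naa10-KO with overlapping groups (difference 0.38, SE 0.26, 95% interval -0.27 to 1.03; limma adjusted p = 0.674). The sign held in all 18 alternative settings, between 0.23 and 0.60. Srebf1 has 1 probe set here, and SREBP-1a and SREBP-1c, its products from different starts, were not told apart. The RNA level says nothing of the cleavage that frees SREBP-1 from the membrane.

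Mlxipl (chr5:135089890-135139768) read 7.90, 8.49 and 8.24 on Naa10-KO arrays and 7.67, 7.06 and 8.15 on WT arrays, again with a higher mean in Naa10-KO and overlapping groups (difference 0.58, SE 0.33, 95% interval -0.25 to 1.42; limma adjusted p = 0.629). WT replicate 3, the WT array closest to the Naa10-KO range in Scd2 and Me1, was also the highest WT array in Srebf1 and Mlxipl. The differences without it were 0.60 for Srebf1 and 0.85 for Mlxipl. In mouse fat, ChREBP comes as an alpha form and as a shorter, more active beta form that starts upstream, and the single Mlxipl probe set was not resolved into the 2. Its 2 RefSeq windows, both on the plus strand, are shown because each holds a motif absent from the other windows of these genes: chr5:135089640-135089939 (upstream) and chr5:135106641-135106940 (downstream).
Mlxipl upstream start: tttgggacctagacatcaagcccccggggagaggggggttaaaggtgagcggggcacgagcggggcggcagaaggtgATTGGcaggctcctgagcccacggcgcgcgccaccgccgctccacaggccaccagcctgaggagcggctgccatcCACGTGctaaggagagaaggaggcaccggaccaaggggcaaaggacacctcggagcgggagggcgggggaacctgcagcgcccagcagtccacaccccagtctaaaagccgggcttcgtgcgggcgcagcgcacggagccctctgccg
Mlxipl downstream start: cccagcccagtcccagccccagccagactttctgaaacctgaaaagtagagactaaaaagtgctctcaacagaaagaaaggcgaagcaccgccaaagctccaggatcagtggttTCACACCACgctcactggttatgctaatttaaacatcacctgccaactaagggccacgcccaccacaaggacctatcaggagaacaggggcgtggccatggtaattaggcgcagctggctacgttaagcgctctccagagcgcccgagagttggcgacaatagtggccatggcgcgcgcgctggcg
The upstream window held CACGTG 98 bases before its start and a CCAAT match on the opposite strand 173 bases before it, and the downstream window held TCACNCCAC, read as TCACACCAC, 136 bases before its start. A match is a run of letters and no evidence of binding.

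Thrsp (Spot 14, chr7:97412933-97417550) is induced by thyroid hormone, insulin and carbohydrate together with the lipogenic enzymes. The signal of Thrsp was 13.06, 13.21 and 13.19 on Naa10-KO arrays and 13.23, 13.27 and 13.46 on WT arrays. The groups separated by a margin of hundredths of a log2 unit (difference -0.17, SE 0.14, 95% interval -0.52 to 0.19; limma adjusted p = 0.730), and they overlapped after quantile normalization or median centring of the arrays. A second bright probe set differed by -0.19 (SE 0.16) with overlapping groups. The dimmest, below the median of all values on all 6 arrays, differed by 0.72 (SE 0.72). The 2 bright probe sets thus both had lower means in Naa10-KO, with intervals that include 0.

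**Figure D2:**
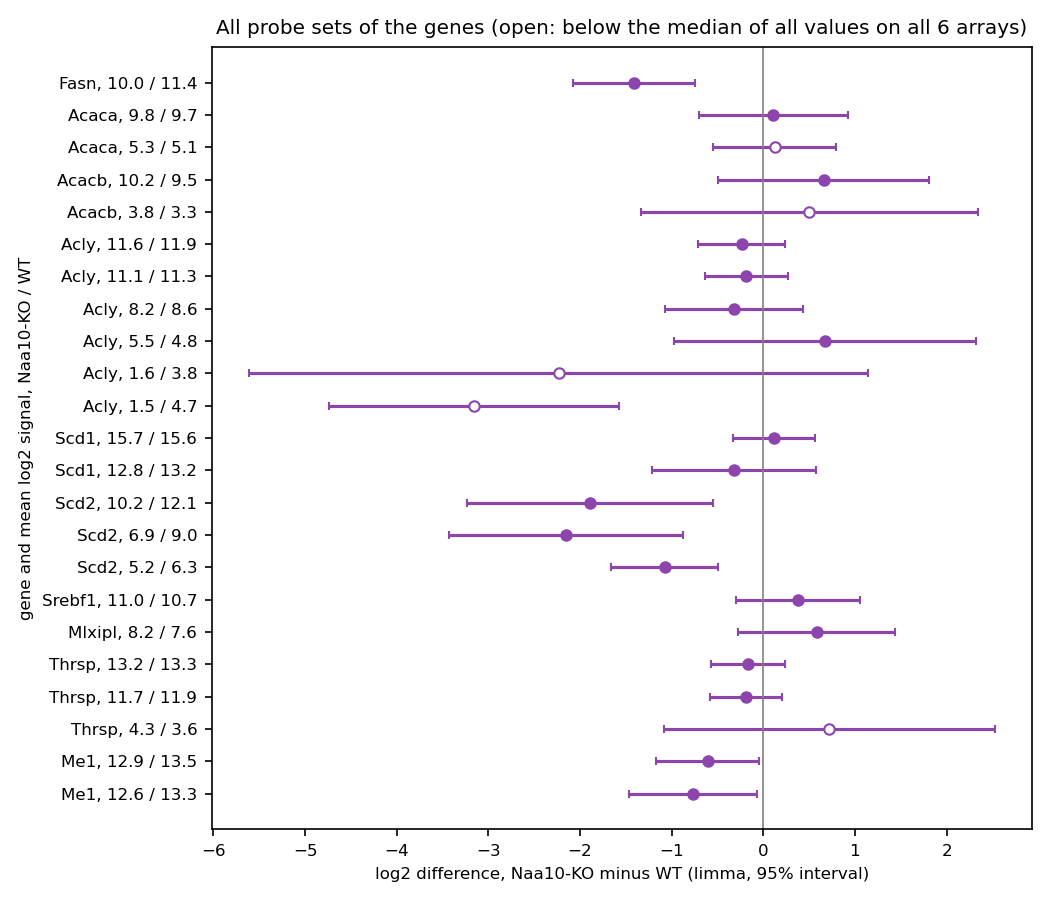
Log2 difference, Naa10-KO minus WT, of the 23 probe sets with limma's 95% interval; each row gives the gene and its mean log2 signals, Naa10-KO before WT, and open points lie below the median of all values on all 6 arrays. The 3 Scd2 rows, the 2 Me1 rows and the Fasn row lie left of 0 with their intervals, as does 1 open Acly row.

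Over the 23 probe sets, 8 had all Naa10-KO arrays below all WT arrays (8.31% of all probe sets), and 0 had them above (8.55%). These 8 were the 3 of Scd2, the 2 of Me1, that of Fasn, 1 of Thrsp and the dim one of Acly. At an unadjusted p under 0.05, 7 were lower (background 4.3%) and 0 higher (3.89%). In limma over all 34945 probe sets 0 passed the threshold, among the members or elsewhere. Of the 23, 16 lay above the median of all values on all arrays and 5 below it on all arrays. Of the 23, 14 had a lower mean in Naa10-KO, as did 50.5% of all probe sets. Probe sets of 1 gene share a transcript and are not independent of each other.

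Other genes of the pathway were taken as lists. The supply and chain processing list held 16 measured genes. Most of them supply carbon and NADPH or lengthen and desaturate the chain, and a few act at other steps. Of the 16, 0 passed in either direction and 10 means were lower in Naa10-KO (median difference -0.33, beside 0.01 over all genes). Among all genes, 48.6% had a lower mean. At an unadjusted p under 0.05, 3 of the 16 were lower and 0 higher, beside 4.35% and 4.85% of all genes. In 5 of the 16 all Naa10-KO arrays lay below all WT arrays, as in 8.14% of all genes. Slc25a1, the mitochondrial citrate carrier that feeds Acly, read 9.71, 10.69 and 10.92 on Naa10-KO arrays and 11.84, 11.90 and 11.08 on WT arrays (difference -1.17, SE 0.41; limma adjusted p = 0.521). Like Scd2 and Me1, it separated the groups with WT replicate 3 nearest to the Naa10-KO arrays. Pgd, an NADPH-forming enzyme of the oxidative pentose phosphate branch, differed by -0.53 (SE 0.17; limma adjusted p = 0.503), Taldo1, transaldolase of the non-oxidative branch, by -0.51 (SE 0.20), and Idh1, the cytosolic isocitrate dehydrogenase that forms NADPH, by -0.33 (SE 0.15). All Naa10-KO arrays lay below all WT arrays in each of these 3, and none passed. The fifth gene in that order was Fads2, the delta-6 desaturase, named after its values were seen (difference -1.09, SE 0.51).

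Of 21 measured regulators of lipogenesis, 0 passed, 12 means were lower (48.6% among all genes) and 9 higher (median difference -0.01). At an unadjusted p under 0.05, 2 of the 21 were higher and 0 lower, where the background was 4.85% of genes higher and 4.35% lower. Both genes encode subunits of AMP-activated protein kinase, which phosphorylates and inhibits acetyl-CoA carboxylase. Prkaa2, its catalytic alpha 2 subunit, read 9.31, 9.21 and 9.34 on Naa10-KO arrays and 8.24, 8.37 and 8.55 on WT arrays (difference 0.90, SE 0.15; limma adjusted p = 0.187). Prkab2, a beta subunit, differed by 0.46 (SE 0.14; limma adjusted p = 0.483). Both forms are abundant in skeletal muscle, whose markers were higher on the same arrays. The part of muscle RNA in these values was not tested. Among other subunits of the kinase, Prkab1 differed by 0.34 (SE 0.16) and Prkaa1 by 0.32 (SE 0.16), both without overlap of the groups. Prkag1 differed by -0.0093 (SE 0.17), with overlap, and none of these passed. Mbtps2, a protease that releases SREBP, differed by 0.37 (SE 0.16). Scap, the sterol-sensing escort of SREBP, differed by -0.48 (SE 0.21), and neither passed. In 5 of the 21 regulators the lowest Naa10-KO value exceeded the highest WT value, beside 10% of all genes. They were Prkaa2, Prkab2, Mbtps2, Prkab1 and Prkaa1. The reverse order occurred in 2 of the 21, Scap and Usf2 (-0.25, SE 0.16), beside 8.14% of all genes.

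Of 11 measured targets of SREBP or ChREBP outside fatty acid synthesis, 0 passed, 6 means were lower and 5 higher (median difference -0.07). The share of lower means over all genes was 48.6%. The cholesterol synthesis enzymes Fdps and Dhcr7 differed by -1.27 (SE 0.34) and -0.82 (SE 0.21), whereas the sterol carrier Stard4 differed by 0.58 (SE 0.18) and Gpam, which starts glycerolipid synthesis, by 0.28 (SE 0.17). The list thus held differences of both signs, and limma adjusted p-values of these 4 lay between 0.436 and 0.646.

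**Figure D3:**
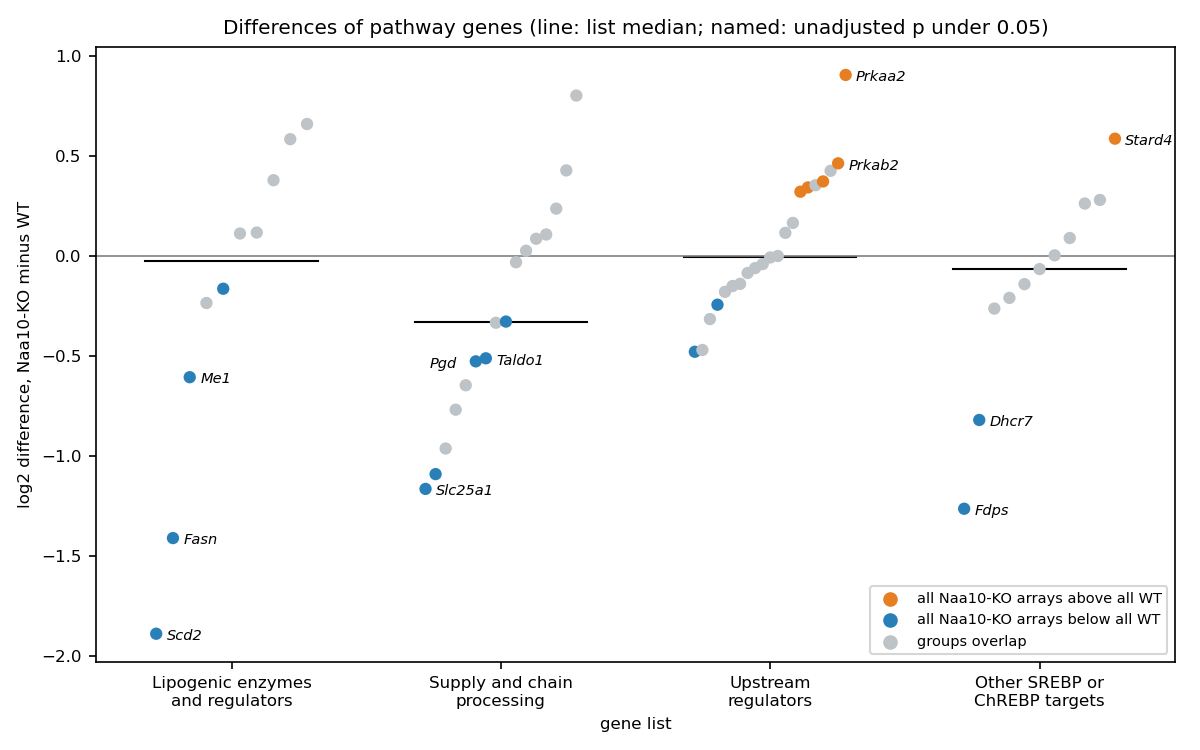
Log2 difference, Naa10-KO minus WT, of each measured gene in 4 lists, with the list median as a line; colours show whether all Naa10-KO arrays lay above or below all WT arrays, and names are given at an unadjusted p under 0.05. No gene passed the adjusted threshold, and the supply and chain processing list has the lowest median (-0.33).

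The plot of arrays beside marker lists sets the enzymes against the other signals that differed between arrays. White adipocyte marker means were 13.82, 14.07 and 14.07 on Naa10-KO arrays and 14.02, 13.98 and 14.25 on WT arrays, so the groups overlapped. With each array centred on these markers, the differences were -1.31 for Fasn, -1.79 for Scd2 and -0.51 for Me1. Only Fasn and Scd2 then separated the groups. Brown and beige adipocyte marker means were 8.56, 9.09 and 8.44 on Naa10-KO arrays and 7.33, 7.53 and 7.03 on WT arrays, without overlap. None of these 12 markers passed singly, and their median difference was 0.35. In 5 of the 12 the lowest Naa10-KO value exceeded the highest WT value, beside 10% of all genes. The reverse order occurred in 0 of the 12, beside 8.14% of all genes. The 5 were Ucp1 (6.17), Slc27a2 (5.50), Cidea (2.10), Cox7a1 (2.00) and Cox8b (1.17). The rest overlapped, and among them Dio2, Otop1 and Prdm16 had lower means in Naa10-KO (-0.97, -0.31 and -0.12). Within the Naa10-KO group, replicate 1 was the lowest in Fasn, Scd2 and Me1. It was also the lowest in the mean log2 signal of white adipocyte markers and had the highest Gapdh 3' minus 5' signal. In the summed linear signal of these markers, replicate 3 was the lowest (379242, beside 406899 on replicate 1). Fasn, Scd2 and Me1 kept lower means without Naa10-KO replicate 1 (-1.17, -1.46 and -0.55).

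**Figure D4:**
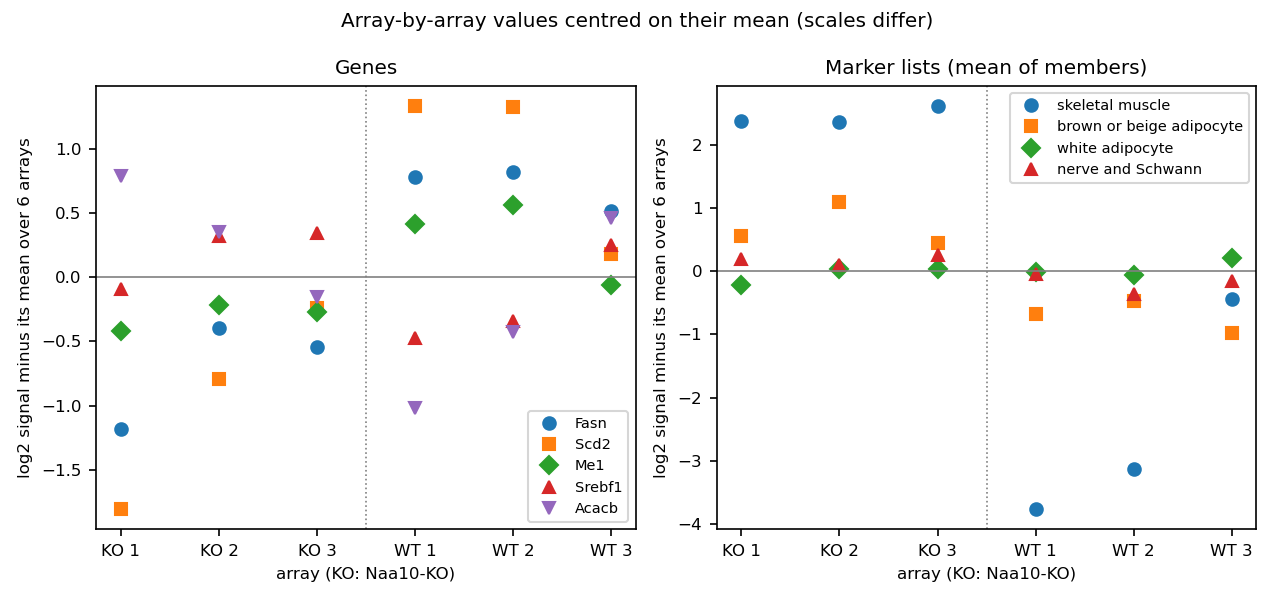
Log2 signal on each array minus its mean over the 6 arrays, for 5 genes (left) and for the mean of 4 marker lists (right), Naa10-KO arrays before WT arrays; the 2 vertical scales differ. Fasn is below its mean on all Naa10-KO arrays, WT replicate 3 lies nearer to the Naa10-KO arrays than the other WT arrays in Scd2, Me1 and the muscle markers, and white adipocyte markers stay near 0.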

How the data were processed

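The authors deposited 1 log2 signal per probe set and array for 45101 probe sets; the software that made it is not named in the labels or the file used here. On the linear scale, the mean after trimming 2% at each end was 500 on every array, so each array had been scaled to 1 level. Per the labels' protocols, biotinylated cRNA came from 3 µg of RNA. Tests took these values as they stand, unfiltered. Probe sets were named through a 2016 platform annotation (34945 with 1 gene, 932 with several, 9160 with none, besides 64 controls). Each gene was represented by its probe set of highest mean. limma 3.58.1 in R 4.3.3 (lmFit, eBayes, 2-sided) compared genotypes over all genes, and separately over all probe sets, with Benjamini-Hochberg adjustment. The labels do not say how the animals were bred or batched, and the number of arrays limits the precision. Each sample title also carries a further number besides the replicate number, and its relation to the values was not tested.

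On simulated data of 18193 genes, 200 of them changed, 8.2% of those changed by 1 log2 unit were called, 45.8% of those changed by 2 and 63.2% of those changed by 3; 6.5 unchanged genes were called per simulation on average. The 10 genes and the pathway and marker lists were chosen with earlier results of these data known. Besides the 10, up to 4 genes of each pathway list with the smallest unadjusted p were named, and the 5 genes whose centred values lay closest to those of Fasn. Genes named for a count of 5 or fewer follow their values, and Prkag1 was named after its values were seen. Results were recomputed under 18 alternative settings, of which centring on white adipocyte markers was chosen after seeing the data. Motifs were chosen knowing the factors of the pathway and were searched on both strands.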

Additional observations from a re-analysis of the deposited data

How the results depend on the processing

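Differences kept their sign in all 18 settings for Fasn, Acacb, Acly, Scd2, Srebf1, Mlxipl and Me1. Fasn ranged from -1.57 to -1.17, Scd2 from -2.27 to -1.08 and Me1 from -0.79 to -0.48. Scd1 turned to -0.019 with quantile normalization, -0.10 with the mean of all its probe sets and -0.32 with its lowest probe set; Thrsp turned to 0.12 and 0.72 in those last 2, through its dim probe set. Acaca ranged from -0.067 to 0.43 over the fits without 1 array and was below 0 in 3 of these 6. With trend and robust options 1 member passed, downward (Fasn, adjusted p = 0.00401, range over all settings 0.00401 to 0.593); its adjusted p was 0.052 when genes of low mean were left out and 0.0648 with values floored at the overall median. Members with all Naa10-KO arrays below all WT arrays numbered 2 after centring on white adipocyte markers.

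Counts over all genes depended on the setting, and the cause was not tested. Higher and lower calls numbered 70 and 5 without genes of low mean, 105 and 14 with that floor, 106 and 10 with an offset of 32 before log2, 102 and 35 with trend and robust options, 27 and 7 with array weights, and 30 and 5 after adipocyte centring. They were 0 and 0 in limma with the mean of all probe sets (1491 genes at an unadjusted p under 0.05) and with the lowest probe set (1294). Without 1 array, higher calls ranged from 0 to 29 and lower calls from 0 to 1, with calls only in the fit without WT replicate 3. With the replicate number as a block both were 0 (1276 genes at an unadjusted p under 0.05), and Fasn had an adjusted p of 0.593. Same-numbered arrays did not deviate together over all genes (correlations -0.0067, -0.0057 and -0.031). Such correlations cannot show a pairing that moves few genes, and no label ties the numbers across genotypes. Low signals near or under the median of all values, as in 5 of the 23 probe sets, limit what can be said of those probe sets.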

Other observations

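The 5 genes whose values ran closest to those of Fasn over the 6 arrays were Lbp, Ly6h, Cavin3, C6 and Sorbs2, out of 11366 genes with a mean at or above the median of all values. Closeness is the root mean square difference of the log2 values after each gene was centred on its own mean, from 0.13 for Lbp to 0.16 for Sorbs2. Lbp, a secreted binding protein of bacterial lipopolysaccharide, read 10.59, 11.35 and 11.57 on Naa10-KO arrays and 12.67, 12.70 and 12.25 on WT arrays (difference -1.37, SE 0.31; limma adjusted p = 0.357). C6, a component of the complement attack complex, averaged 7.89 ± 0.31 in Naa10-KO and 9.12 ± 0.19 in WT fat (SD, n = 3 each; difference -1.23, SE 0.22; limma adjusted p = 0.221). Cavin3, a caveolar coat protein, differed by -1.20 (SE 0.31), Ly6h by -1.27 (SE 0.33) and Sorbs2, an adaptor of the actin cytoskeleton, by -1.24 (SE 0.32). None passed, and each was picked for its likeness to Fasn, so their separation of the genotypes is no further evidence for it. Within the 10 lipogenic genes, Me1 and Scd2 were the closest to Fasn, at ranks 289 and 351 of the 11366, and Acly followed at 1536 and Thrsp at 2466.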
